A study of Mus musculus with 28 samples.

Results

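The genes described are the 5 interferon-induced transmembrane genes listed under the symbols Ifitm1, Ifitm2, Ifitm3, Ifitm6 and Ifitm7, together with Bst2, which encodes tetherin. They were chosen by symbol, as 6 of the 40021 genes listed, and all 6 were among the 13164 genes tested. Values were RPKM, read numbers corrected for the length of each transcript and the depth of each library, in microglia, the resident macrophages of the retina, sorted from 28 single retinas of male mice. All mice were heterozygous for Cx3cr1CreER:R26-tdTomato on a C57BL/6 background and had been given tamoxifen as eye drops when young, some weeks before the experiment, so that a Cre recombinase under the control of the fractalkine receptor gene Cx3cr1 turned on a red fluorescent protein. As heterozygotes, the mice of every group, controls included, also carried an altered Cx3cr1 allele. The 10 naive retinas received no injection. The other retinas received lipopolysaccharide (LPS), a bacterial cell wall component sensed by Toll-like receptor 4, by injection into the vitreous, which induces endotoxin-induced uveitis (EIU). They were taken after 4 h (n = 6), 18 h (n = 5) or 2 weeks (n = 7). No vehicle-injected group was analysed here. Retinas were collected in 2 experiments. Experiment 1 gave 6 naive retinas and 3, 4 and 4 at the successive times, and experiment 2 gave 4 naive retinas and 3, 1 and 3. A fixed number of live cells with high tdTomato fluorescence was sorted per retina, without pooling of animals. The labels do not tie retinas to animals, so left and right eyes may come from the same mouse, and p-values measure the spread between retinas.

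IFITM proteins are small membrane proteins that restrict the entry of enveloped viruses by hindering fusion of the viral with the cellular membrane. IFITM3 and IFITM2 act mainly in endosomes, and IFITM1 mainly at the cell surface. Tetherin acts at the other end of the viral life cycle, holding newly budded virus particles at the surface of the infected cell, and is also used as a surface marker of plasmacytoid dendritic cells. Transcription of both families can be raised by interferons through transcription factors that bind an interferon-stimulated response element (ISRE) or a gamma-activated sequence (GAS).

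In GRCm38, Ifitm2, Ifitm1, Ifitm3 and Ifitm6 lie within 63088 bases of chromosome 7. Ifitm2 (ENSMUSG00000060591) occupies chr7:140954837-140955987, Ifitm1 (ENSMUSG00000025491) chr7:140967221-140969825, Ifitm3 (ENSMUSG00000025492) chr7:141009586-141010770 and Ifitm6 (ENSMUSG00000059108) chr7:141015699-141017924. Ifitm1 is on the plus strand and the others are on the minus strand. Ifitm7 (ENSMUSG00000065968) lies apart at chr16:13981699-13986888 and Bst2 (ENSMUSG00000046718) at chr8:71534255-71537456, both on the minus strand. All 6 genes are annotated as protein coding. The nearest genes tested on either side, Cox8b and Ptdss2 around the chromosome 7 cluster, Mpv17l and Marf1 around Ifitm7, and Plvap and Mvb12a around Bst2, passed the test at none of the 3 times against naive retinas.

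Promoter windows of RefSeq (GRCm38.p6), 300 bases each from 250 before the start of transcription, were found for all 6 genes. They were searched on both strands for an ISRE core, GAAA followed after any 2 bases by a further GAAA, and for the GAS TTCNNNGAA. The ISRE core was present in the windows of Ifitm2, Ifitm3 and Bst2 and in none of Ifitm1, Ifitm6 and Ifitm7. It was present in 3.44% of all 32851 windows. The matches are shown because these 3 genes had the highest levels of the 6. The sequences read 5′ to 3′ on the transcribed strand, with the ISRE core matches in capitals.
Ifitm2, 1 match, chr7:140955988-140956017, minus strand: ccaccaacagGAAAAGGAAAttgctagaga
Ifitm3, 2 matches, chr7:141010714-141010743, minus strand: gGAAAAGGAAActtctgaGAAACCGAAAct
Bst2, 2 overlapping matches, chr8:71537580-71537609, minus strand: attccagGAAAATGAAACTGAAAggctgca
The match of Ifitm2 spanned bases -46 to -37 from the start, those of Bst2 bases -130 to -115, and those of Ifitm3 bases 3 to 29 after the start, within the first exon of the transcript. A GAS was found in the windows of Ifitm3 and Bst2, where it overlapped an ISRE core, and in that of Ifitm6. It was present in 8.3% of all windows. A match describes these letters only. The search covered 1 window per gene, so other starts of transcription of the same gene were not searched. The window of Ifitm6 (chr7:141016843-141017142) lies inside the gene as annotated. For Bst2, whose level separated 18 h from all other retinas, the 250 bases upstream of the start (chr8:71537473-71537722, minus strand) are given with the same capitals.
Bst2, upstream: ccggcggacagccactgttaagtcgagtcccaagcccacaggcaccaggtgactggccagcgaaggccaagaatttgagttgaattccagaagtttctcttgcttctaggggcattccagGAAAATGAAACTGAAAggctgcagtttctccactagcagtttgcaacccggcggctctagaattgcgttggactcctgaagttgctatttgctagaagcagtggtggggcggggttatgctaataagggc

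Alignments numbered 7510000 to 19700000 per retina, and 6552 to 11825 genes reached 1 RPKM. The 4 retinas with fewer than 8000 such genes were naive 3, naive 4, 18 h 4 and 2 weeks 1. Microglial markers (15 genes, among them P2ry12 and C1qa) summed to between 4795 and 27255 RPKM in every retina. Against naive retinas, 6 of the 15 were called lower at 4 h (4.39% of all genes) and 8 at 18 h (1.85% of all genes). Rod photoreceptor markers summed to 1848 to 8601 RPKM per retina, so RNA of other retinal cells was present in every group. As these are bulk samples, fewer cells of a type and less RNA per cell cannot be told apart. For the 6 genes, a single read was worth between 0.0278 and 0.203 RPKM, depending on transcript length and depth. Differences were tested with limma on log2(RPKM + 1) and are given on that scale with the standard error (SE). A gene was called when its Benjamini-Hochberg adjusted p was at most 0.05 and its fold change at least 2.

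Ifitm3, the best known antiviral member of the family, had the highest median level of the 6 in every group and rose at 18 h and, less firmly, at 4 h. Naive retinas held 53.77 to 304.8 RPKM, with a median of 153. At 4 h the values were 271.5, 906.2, 459.7, 251.9, 555.4 and 145.7 RPKM, and at 18 h they were 2576, 2690, 3147, 2431 and 2638. The 18 h retinas lay close together and far above all other retinas, whereas 4 h retinas overlapped with naive ones. Ifitm3 was 1.33 higher at 4 h than in naive retinas (SE 0.38, limma adjusted p = 0.02), a 2.51-fold difference. That call was lost in 5 of 12 other settings (adjusted p between 0.0506 and 0.8) and without 4 h 2, 4 h 3 or 4 h 5 (adjusted p = 0.09, 0.0544 and 0.07). Ifitm3 was 4.21 higher at 18 h (SE 0.40, limma adjusted p = 9.7e-09), an 18.5-fold difference, and between 4 h and 18 h it gained 2.88 (SE 0.44, limma adjusted p = 4.7e-05). The retinas at 2 weeks held 97.96 to 265.8 RPKM with a median of 188.3, inside the naive range, and differed from naive retinas by 0.34 (SE 0.36, limma adjusted p = 1). From 18 h to 2 weeks Ifitm3 fell by 3.87 on the log2 scale (limma adjusted p = 3.5e-07).

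Bst2 rose at 18 h and was lower than in naive retinas, short of the test, at 4 h. Its naive values ran from 59.57 to 94.05 RPKM (81.42 ± 11.79, SD, n = 10). At 4 h they were 41.09, 72.29, 72.85, 52.64, 51.93 and 45.00 RPKM, and 4 of these 6 retinas were below every naive retina. At 18 h they were 457.2, 458.4, 671.2, 323.5 and 501.1 RPKM, all above every other retina. The difference at 4 h was -0.55 (SE 0.22), which did not pass the test (limma adjusted p = 0.14). Rescaling each retina to equal summed RPKM made it -0.83 (limma adjusted p = 0.013), still short of 2-fold, while the median of all genes moved from -0.11 to -0.27 (from -0.08 to -0.26 at 18 h). At 18 h Bst2 was 2.53 higher than in naive retinas (SE 0.24, limma adjusted p = 8.8e-09), a 5.77-fold difference, and ranked 11 of 13164 genes by p, with Ifitm3 at 13. Against 4 h the difference was 3.08 (SE 0.26, limma adjusted p = 1.2e-09). By 2 weeks Bst2 held 72.28 to 129.7 RPKM, with 4 of 7 retinas above every naive retina, and was 0.27 above naive retinas (SE 0.21, limma adjusted p = 1), and had fallen by 2.26 on the log2 scale from 18 h (limma adjusted p = 4.7e-07). The study picked Bst2 from these same samples as a marker to follow up, and its qPCR used remaining cDNA of the sorted cells. The direction of Bst2 RNA at 18 h is therefore not independent evidence. By flow cytometry, the authors also reported more tetherin protein in most microglia at the peak of cell infiltration. No protein was measured here.

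**Figure D1:**
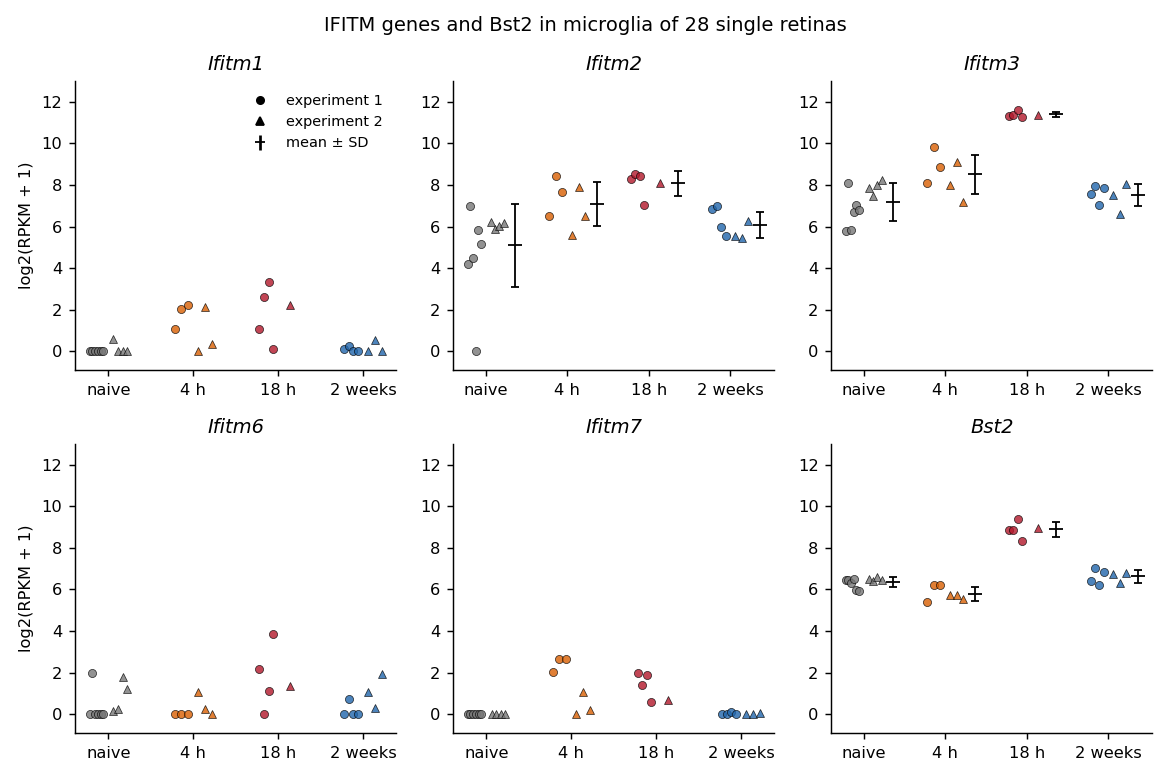
Level of each gene, as log2(RPKM + 1) on the vertical axis, in each of the 28 retinas by group. Circles are retinas of experiment 1, triangles those of experiment 2, and the bars beside Ifitm2, Ifitm3 and Bst2 give the mean ± SD. The 5 retinas at 18 h stand above all others for Ifitm3 (2431 to 3147 RPKM) and Bst2 (323.5 to 671.2 RPKM).

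Ifitm2, the closest relative of Ifitm3 in this set (75.9% identity over the aligned coding sequences), rose at 18 h and, at the threshold, at 4 h. Naive retinas ranged from effectively 0 in naive 4 to 124.4 RPKM, with a median of 57.42. At 4 h the values were 90.89, 340.4, 199.2, 47.42, 241.7 and 90.69 RPKM, and at 18 h they were 316.9, 371.4, 343.6, 130 and 277.4. Every 18 h retina was above every naive retina, but 3 of the 5 (18 h 1, 18 h 4 and 18 h 5) were within the range at 4 h. Ifitm2 was 2.98 higher at 18 h than in naive retinas (SE 0.69, limma adjusted p = 0.0072). Its difference at 4 h, 2.00 (SE 0.65), was at the threshold (limma adjusted p = 0.0498). Leaving out any of 18 of the 28 retinas ended the call, for example naive 1 (adjusted p = 0.07) or 4 h 2 (adjusted p = 0.14). Both differences from naive retinas were enlarged by naive 4, and without it they were 1.43 at 4 h and 2.42 at 18 h. From 4 h to 18 h Ifitm2 changed by 0.98 (SE 0.76, limma adjusted p = 0.6), and from 18 h to 2 weeks by -2.0 (SE 0.74, limma adjusted p = 0.17). All 2-week retinas (42.88 to 124.5 RPKM) were nevertheless below all 18 h retinas. Without naive 4 the latter difference passed the test (adjusted p = 0.013). No stretch of 74 bases, about the length of a read, was shared between the transcripts of Ifitm2 and Ifitm3 or between any other pair of the 6 genes. Of the 582 such stretches of Ifitm2, 246 (42.3%) were shared with other annotated genes, 195 of them with Gm45717, which overlaps Ifitm2 on the same strand and was listed at no more than 1.169 RPKM.

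Ifitm3 made up a larger share of the family's RNA at 18 h than at 4 h or 2 weeks. Of the summed RPKM of the 5 Ifitm genes, Ifitm3 made up 61.5% to 83.9% at 4 h, 87.7% to 94.4% at 18 h and 62.1% to 83.5% at 2 weeks. In naive retinas the share was 68.1% to 100%, with a median of 75.4%, so the naive range included that at 18 h. The log2 ratio of Ifitm3 to Ifitm2, each with 1 RPKM added, was 1.41 ± 0.57 at 4 h (SD, n = 6), 3.30 ± 0.53 at 18 h (n = 5) and 1.44 ± 0.59 at 2 weeks (n = 7). All 18 h retinas were above all retinas of 4 h and 2 weeks. This ratio was chosen after its values were seen. In an exact permutation test over retinas, two-sided and adjusted over 6 comparisons, 18 h differed from 4 h by 1.90 (adjusted p = 0.013) and 2 weeks from 18 h by -1.87 (adjusted p = 0.0076). The difference between 18 h and naive retinas was 1.22 (adjusted p = 0.25). It turned on naive 4, whose ratio was 6.71 and whose Ifitm2 value was effectively 0. Without that retina the difference was 1.74 (exact permutation test, adjusted p = 0.003). That p-value does not allow for the choice of the ratio or of the retina left out.

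**Figure D2:**
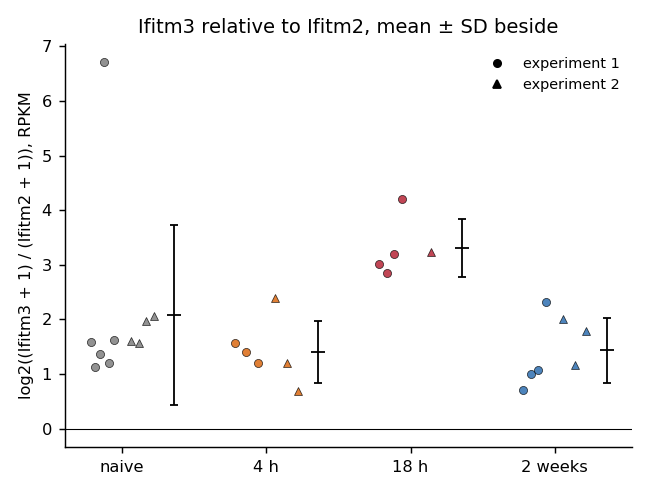
Log2 ratio of Ifitm3 to Ifitm2, each as RPKM + 1, for each retina by group, with the mean ± SD beside the points (circles, experiment 1; triangles, experiment 2). The 18 h retinas lie between 2.85 and 4.21, and naive 4 stands alone at 6.71.

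Ifitm1 and Ifitm7 were near or at 0 in naive retinas and were measured mainly after LPS. Both passed the filter only through the 4 h and 18 h groups, where they were high. Their spread was pooled with naive and 2-week retinas at or near 0, so their p-values below may be too small. Ifitm1 was listed at 0 in 9 of 10 naive retinas and at 0.5155 RPKM in naive 7. At 4 h its values were 1.091, 3.062, 3.755, 0, 3.375 and 0.2686 RPKM, at 18 h they were 1.11, 5.243, 9.27, 0.08072 and 3.661, and at 2 weeks they were at most 0.4679. At both early times 4 retinas were above every naive retina and the rest were not. The differences from naive retinas were 1.24 at 4 h (SE 0.35, limma adjusted p = 0.021) and 1.82 at 18 h (SE 0.38, limma adjusted p = 0.0026). From 18 h to 2 weeks Ifitm1 fell by 1.74 on the log2 scale (limma adjusted p = 0.011). Leaving out 4 h 2, 4 h 3 or 4 h 5 ended the call at 4 h (adjusted p between 0.07 and 0.083), and leaving out 18 h 2 or 18 h 3 ended that from 18 h to 2 weeks (adjusted p = 0.0577 and 0.07).

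Ifitm7 was listed at effectively 0 in all 10 naive retinas, at no more than 8.84e-10 RPKM. At 4 h its values were 3.063, 5.346, 5.385, 3.23e-19, 1.085 and 0.1598 RPKM, and at 18 h they were 2.997, 1.654, 2.718, 0.482 and 0.6022. All 18 h retinas and 5 of the 6 at 4 h were above every naive retina, and at 2 weeks none exceeded 0.06131 RPKM. Ifitm7 was 1.44 higher at 4 h (SE 0.31, limma adjusted p = 0.0019) and 1.31 higher at 18 h (SE 0.33, limma adjusted p = 0.014) than in naive retinas. To 2 weeks it fell by 1.42 from 4 h (limma adjusted p = 0.0059) and fell by 1.29 from 18 h (limma adjusted p = 0.038). The latter call was lost in 6 of 11 other settings and when any of 10 of the 28 retinas was left out, namely each 2-week retina, 18 h 1, 18 h 2 or 18 h 3 (adjusted p up to 0.14). Without 18 h 1 or 18 h 3 the rise at 18 h no longer passed (adjusted p = 0.074 and 0.067). Of the 2266 stretches of 74 bases in its transcripts, 153 lie in the overlap with 2900011O08Rik on the opposite strand. The library kit does not mark strand, so reads of that overlap cannot be assigned to either gene. 2900011O08Rik had a median of 3.226 RPKM in naive retinas, where Ifitm7 was at effectively 0.

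Ifitm6, a family member of the mouse, did not pass the test in any comparison of the groups as fitted. Its values were 0 to 2.954 RPKM in naive retinas, 0 to 1.069 at 4 h and 0 to 2.81 at 2 weeks. At 18 h they were 3.44, 0, 1.143, 13.24 and 1.565 RPKM, with the highest in 18 h 4, a retina with few detected genes. The difference between 18 h and naive retinas was 1.15 (SE 0.45, limma adjusted p = 0.15). It passed the test when 18 h 2, the retina at 0, was left out (adjusted p = 0.0475). Against 4 h the difference at 18 h was 1.47 (limma adjusted p = 0.08). It passed with experiment as a covariate (1.62, adjusted p = 0.042) and without 18 h 2 (1.89, adjusted p = 0.022).

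In counts, 4 of the 6 genes (Ifitm1, Ifitm2, Ifitm3 and Ifitm7) were called higher at 4 h and 5 (the same 4 and Bst2) at 18 h, and none was called lower. Of all genes tested, 3.68% were called higher and 4.39% lower at 4 h, and 2.84% higher and 1.85% lower at 18 h. These comparisons share the naive retinas. Ifitm1 reached 1 RPKM in 8 retinas and Ifitm7 in 7, all at 4 h or 18 h, and so passed the filter only through the groups where they were high. The calls of these 2 genes, counted above, also rest on p-values that may be too small. At 18 h, Ifitm2, Ifitm3, Ifitm7 and Bst2 did not overlap with naive retinas, lying above them, as did 2.05% of all genes. Between 4 h and 18 h, Ifitm3 and Bst2 were called higher (2.92% of all genes) and did not overlap (4.84%), and between 18 h and 2 weeks Ifitm1, Ifitm3, Ifitm7 and Bst2 were called lower (1.55% of all genes). Ifitm2, Ifitm3, Ifitm7 and Bst2 lay below all 18 h retinas at 2 weeks (2.07% of all genes). From 4 h to 2 weeks Ifitm7 was called lower (2.91% of all genes), and Bst2 was 0.82 higher (SE 0.24, limma adjusted p = 0.034), short of 2-fold. After rescaling to equal summed RPKM that difference of Bst2 was 1.07 and was called (limma adjusted p = 0.0041). At 2 weeks none of the 6 was called against naive retinas in limma (0.0076% of all genes in either direction), none had an unadjusted p under 0.05, and the smallest was 0.12, for Ifitm2. The median difference of all genes was -0.11 at 4 h, -0.08 at 18 h and 0.07 at 2 weeks.

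**Figure D3:**
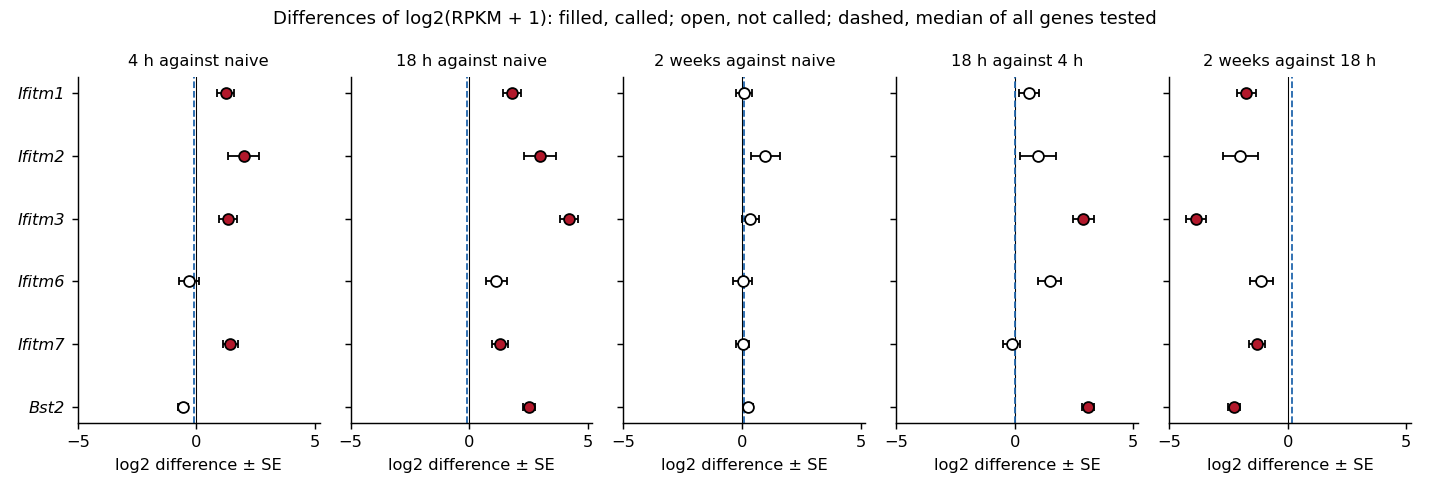
Differences on the log2(RPKM + 1) scale with their SE (horizontal axis) for the 6 genes in 5 comparisons. Filled points were called, open points were not, and the dashed line is the median of all 13164 genes tested. Bst2 lies at -0.55 at 4 h and 2.53 at 18 h, and all 6 points are open at 2 weeks against naive retinas.

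The rise at 4 h passed the test within experiment 1 for Ifitm3 and Ifitm7 and within experiment 2 for none of the genes. Within experiment 1 (3 retinas at 4 h and 6 naive), Ifitm3 was 2.21 higher (limma adjusted p = 0.0098), Ifitm7 2.45 higher (limma adjusted p = 2.4e-04), Ifitm2 3.09 higher (limma adjusted p = 0.11) and Ifitm1 1.78 higher (limma adjusted p = 0.074). Within experiment 2 (3 retinas at 4 h and 4 naive), the differences were 0.20 for Ifitm3, 0.42 for Ifitm7, 0.58 for Ifitm2 and 0.67 for Ifitm1. The differences of Bst2 were -0.33 in experiment 1 and -0.81 in experiment 2 (limma adjusted p = 0.79 and 0.012).

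A test of the difference between the experiments in the 4 h response passed for Ifitm7 only, at -2.03 (SE 0.41, limma adjusted p = 0.037), as for 0.0988% of all genes. Leaving out any of 17 of the 28 retinas ended that call, with adjusted p up to 0.24 without 4 h 4. For Ifitm3 the value was -2.01 (SE 0.69, limma adjusted p = 0.61), and for Ifitm2 it was -2.51 (SE 1.28, limma adjusted p = 1). Naive retinas also differed between experiments, by 1.19 for Ifitm3 (limma adjusted p = 0.12) and 1.66 for Ifitm2 (limma adjusted p = 0.23), both higher in experiment 2. None of the 6 genes passed that test, which 1.79% of all genes did. Without naive 2, Ifitm3 passed it (1.47, limma adjusted p = 0.036). With 1 retina left out, the number of all genes passing it ran from 0 to 1664. Naive Ifitm3 had medians of 106.8 RPKM in experiment 1 and 243 in experiment 2. The level of Ifitm7 at 4 h was lower in experiment 2 by 2.03 (limma adjusted p = 0.0014). Each experiment had 3 retinas at 4 h, and 0.258% of all genes passed this test. In naive retinas of both experiments Ifitm7 was effectively 0. Both tests of Ifitm7 between experiments used a spread pooled over all 28 retinas. All 10 naive and 5 of the 7 2-week retinas were at effectively 0 and added almost no spread. The 2 p-values may therefore be too small for a comparison of 3 with 3 retinas at 4 h. At 18 h the differences from naive retinas were 4.69 for Ifitm3 and 2.59 for Bst2 within experiment 1. Both passed the test (limma adjusted p = 2.5e-06 and 3.0e-04). The single 18 h retina of experiment 2 differed from the naive retinas of that experiment by 3.47 and 2.5. It has no replicate of its own.

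**Figure D4:**
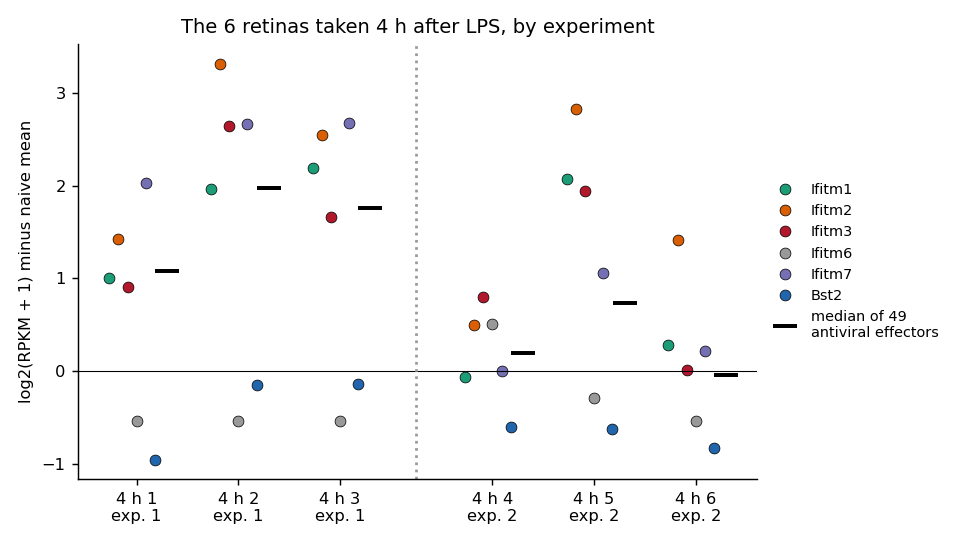
The 6 retinas at 4 h, 3 of experiment 1 and 3 of experiment 2, with log2(RPKM + 1) minus the mean of the naive retinas on the vertical axis. Coloured points are the 6 genes and black bars the median of 49 interferon-stimulated antiviral effectors, which was 1.08, 1.97 and 1.76 in experiment 1 and 0.19, 0.73 and -0.04 in experiment 2.

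Other interferon-stimulated antiviral effectors were also higher at 4 h in experiment 1. Of 49 such genes tested, the 6 genes apart, 47 were higher at 4 h in experiment 1, with a median difference of 1.91, and 19 in experiment 2, with a median of -0.20. Of the 13164 genes tested, 6255 were higher in experiment 1 (median -0.05) and 4221 in experiment 2 (median -0.26). In the single retinas at 4 h, the median of the 49 differences from the naive mean was highest in 4 h 2 (1.97) and lowest in 4 h 6 (-0.04). Ifitm3 was also highest in 4 h 2 (906.2 RPKM) and lowest in 4 h 6 (145.7 RPKM). Within experiment 2 both were highest in 4 h 5. Across experiments the orders differed, as 4 h 5 had more Ifitm3 (555.4 RPKM) than 4 h 3 (459.7) and 4 h 1 (271.5). Its effector median (0.73) was below theirs (1.76 and 1.08). Over all retinas, 12 of the 49 were called higher at 4 h (3.68% of all genes) and 14 at 18 h (2.84% of all genes) and none lower, with medians of 0.72 and 1.08. At 2 weeks none was called, and the median was 0.30.

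Ch25h, which makes the antiviral lipid 25-hydroxycholesterol, and Ifit1, which binds viral RNA, showed the largest differences of that list at both times. Ch25h was 6.76 higher at 4 h (SE 0.66, limma adjusted p = 7.8e-09) and 7.46 higher at 18 h (SE 0.71, limma adjusted p = 9.7e-09). Ifit1 was 5.91 higher at 4 h (SE 0.72, limma adjusted p = 4.0e-07) and 4.21 higher at 18 h (SE 0.76, limma adjusted p = 5.4e-04). The smallest values of the list were -0.37 for Epsti1 at 4 h and -0.69 for Tdrd7 at 18 h, neither called. Between 4 h and 18 h, where Ifitm3 and Bst2 gained 2.88 and 3.08, the list had a median difference of 0.22 over both experiments. That median was -0.41 within experiment 1, where Ifitm3 and Bst2 gained 2.48 and 2.92. For the single 18 h retina of experiment 2 it was 1.62, beside 3.27 and 3.31. Ifi27l2a was called higher over that interval (3.04, SE 0.89, limma adjusted p = 0.037), and Mx2 (-2.41) and Parp14 (-1.71) were called lower.

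**Figure D5:**
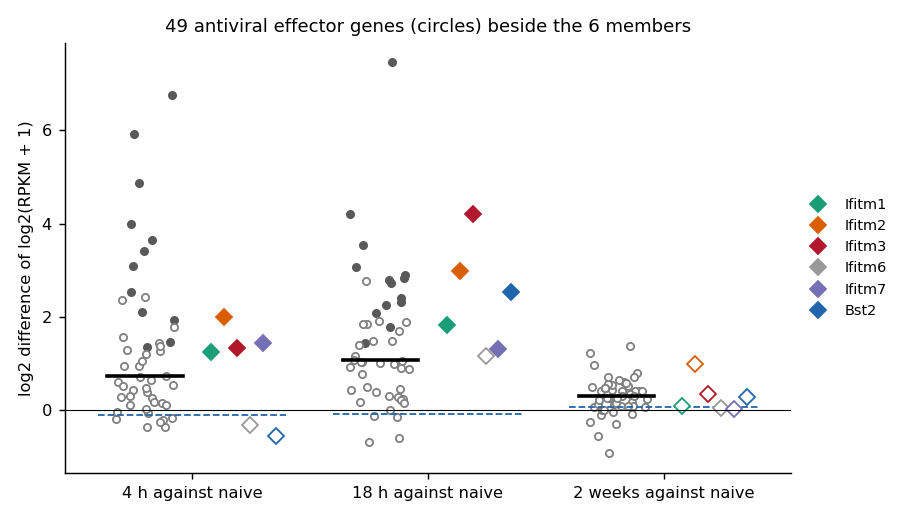
Differences from naive retinas on the log2(RPKM + 1) scale for 49 interferon-stimulated antiviral effectors (circles) and the 6 genes (diamonds). Filled symbols were called, the black line is the median of the 49 (0.72, 1.08 and 0.30), and the dashed line the median of all genes tested.

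Among 21 genes of interferon signalling tested, 5 were called higher at 4 h and none lower. These were Ifnb1, which encodes interferon beta, the transcription factor Irf1, the kinase Jak2 and the feedback inhibitors Socs1 and Socs3. Ifnb1 was listed at 9.709 to 522.2 RPKM at 4 h, at 0 to 19.31 in naive retinas, and at 0 in all 5 retinas at 18 h, when Ifitm3 and Bst2 were highest. At 4 h it was 9.709 to 65.19 RPKM in experiment 1 and 269.2 to 522.2 in experiment 2. Experiment 2, with more Ifnb1, thus had the smaller differences of the effectors from naive retinas. Part of this lay in the naive retinas, where the effectors were higher in experiment 2 by a median of 0.84 (all genes 0.40). In the 4 h retinas the median difference, experiment 2 minus experiment 1, was -1.34 (all genes 0.21). A link to Ifnb1 was not tested. The difference of Ifnb1 at 4 h was 5.64 (SE 0.72, limma adjusted p = 1.1e-06), and that of Socs3 was 5.66 (SE 0.59, limma adjusted p = 2.8e-08). At 18 h, Irf7, a transcription factor induced by interferon, was the gene of that list called higher (3.05, SE 0.69, limma adjusted p = 0.006). The lowest values were -1.12 for the receptor gene Ifngr1 at 4 h and -1.20 for Irf5 at 18 h, neither called. At 2 weeks none was called. The medians at the 3 times were 0.59, -0.08 and 0.20.

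Among 13 genes of nucleic acid sensing, the RNA sensor Ifih1 (2.99, SE 0.37, limma adjusted p = 5.1e-07) and the kinase Ikbke (1.52, SE 0.27, limma adjusted p = 2.5e-04) were called higher at 4 h. Ikbke alone was called at 18 h (1.20, SE 0.29, limma adjusted p = 0.011), and none was called at 2 weeks. The medians were 0.44, 0.19 and 0.11. Of the 4 enzymes listed as acting on IFITM proteins or with them, Zmpste24, Zdhhc20 and Nedd4 were tested and none was called at any time. Zdhhc20, a palmitoyltransferase, had 24.36 ± 12.34 RPKM in naive retinas (SD, n = 10) and 15.63 ± 4.577 at 18 h (n = 5).

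Markers of other cells were examined beside the rise at 18 h. Monocyte markers (11 genes) summed to 14.74 to 83.08 RPKM in naive retinas, 13.64 to 180.6 at 4 h and 156.4 to 329.2 at 18 h. By 2 weeks they summed to 20.97 to 80.07 RPKM. At 18 h the means of 9 of the 11 were above naive retinas. Ms4a4c was called higher, at 134.4 to 314.8 RPKM against 8.587 to 56.89 in naive retinas, and made up most of the sum. Plac8 reached 27.46 RPKM at 18 h and 2.858 in naive retinas. The defining monocyte genes Ccr2 and Ly6c2 reached 1.145 and 4.684 RPKM at 18 h, and 0.2161 and 0.02791 in naive retinas. Neutrophil markers (11 genes) summed to at most 0.1996 RPKM in naive retinas and 0.2638 at 4 h, and to 0 to 19.89 at 18 h. The means of 8 of the 11 were above naive retinas at 18 h, and none of the 11 passed the filter. The calprotectin genes S100a8 and S100a9 were at 0 in all naive retinas and reached 9.236 and 5.15 RPKM at 18 h, while Ly6g reached 0.189 RPKM and Ngp, Ltf and Mpo were at 0 in all 18 h retinas. Lymphocyte markers (13 genes) summed to 20.24 to 81.28 RPKM in naive retinas, 6.617 to 18.29 at 4 h and 41.01 to 373.3 at 18 h. The means of 9 of the 13 were above naive retinas at 18 h, with Nkg7 called higher and Cd79a at 0 in all 18 h retinas. Plasmacytoid dendritic cell markers (8 genes), of interest for Bst2, summed to 9.061 to 89.87 RPKM in naive retinas and 19.19 to 36.67 at 18 h, and Ly6d was at 0 in both groups. Rod photoreceptor markers (12 genes) had a median sum of 5120 RPKM in naive retinas and 2824 at 18 h, and Müller glia markers (9 genes) 144.5 and 52.35. No mean of either list was above naive retinas at 18 h, and Nrl and Glul were called lower. The part of these cells in the 18 h values of the 6 genes was not tested.

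Ranked by median RPKM, which is corrected for length, Ifitm3 came first in every group and Bst2 second in naive, 18 h and 2-week retinas, while Ifitm2 was second at 4 h. In naive retinas Ifitm3 was above Bst2 in 8 of 10 retinas (exact permutation test, two-sided, adjusted p = 0.086), and Bst2 above Ifitm2 in 9 of 10 (exact permutation test, adjusted p = 0.086). Ifitm2 was above Ifitm6 with an adjusted p of 0.039 (exact permutation test), the only one of 20 neighbouring pairs to pass, but in naive 4 both genes were at effectively 0. With such values set to 0, Ifitm2 was above Ifitm6 in 9 of 10 retinas (exact permutation test, adjusted p = 0.078) and no pair passed. At 18 h Ifitm3, Bst2 and Ifitm2 kept that order in 5 of 5 retinas, but 5 retinas cannot give an exact permutation p below 0.062, and 6 cannot go below 0.031. Ifitm1, Ifitm6 and Ifitm7 filled the lower ranks in every group, and no pair among them passed.

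The genes most like each of the 6, by Pearson r of log2(RPKM + 1) over the 28 retinas, are given as a description, since all values share libraries and groups. For Bst2 they were Pilrb1 (0.913), Pilrb2 (0.899) and Pilra (0.893), paired immunoglobulin-like receptors. Pilra had mean levels of 31.15 RPKM in naive retinas, 12.96 at 4 h, 212.1 at 18 h and then 39.53, with the 4 h mean below and the 18 h mean above the naive mean, as for Bst2. For Ifitm3 they were Rack1 (0.905), Il18bp (0.9) and Aoah (0.899), of which the last encodes an enzyme that inactivates LPS. Aoah had mean levels of 2.222, 5.391, 56.88 and 2.939 RPKM in the same order of groups. For Ifitm2 they were Psmc4 (0.890), Morf4l2 (0.876) and Igsf6 (0.863). For Ifitm1 they were Lcn2 (0.888), Acp5 (0.870) and Tnfrsf9 (0.848), and for Ifitm7 Ptges (0.928), Tnfrsf9 (0.910) and Il1rn (0.904). Ptges makes prostaglandin E and Il1rn encodes the interleukin-1 receptor antagonist, whose mean level was 168 RPKM at 4 h and 39.26 at 18 h. Ifitm6 had no gene above 0.736 (Pole2). Within the set, Bst2 had r = 0.792 with Ifitm3 and 0.285 with Ifitm7, and Ifitm1 had r = 0.799 with Ifitm7.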

How the data were processed

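Libraries were made by the authors with a SMART-Seq v4 kit, which does not mark strand, and sequenced as single-end reads. Per the methods and labels, reads were trimmed, aligned to mm10 with STAR 2.5.3a and assigned to Ensembl transcripts with Partek, by an expectation-maximisation method that can divide a read between genes. The deposited values are RPKM per gene and retina, so very low values can be products of that estimation. The alignments per retina are those of the deposited table. The deposited tables of differential genes, which hold the authors' p-values and fold changes, were not used.

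Genes with at least 1 RPKM in at least 5 of 28 retinas were tested on log2(RPKM + 1), with a pseudocount of 1, in limma 3.58.1 (R 4.3.3) with a mean-variance trend, all 4 groups in 1 fit, and Benjamini-Hochberg adjustment over all genes tested. Experiments were compared in a fit of 8 means of group and experiment, where only the adjusted p was used. Neighbours in rank were compared by an exact sign-flip permutation test within retinas. Of the limma comparisons, only 18 h against naive retinas was checked on simulated data, with deviations from group means shuffled over all retinas. The members and gene lists were chosen with earlier results of these data known. Named genes are the 6 members, the 3 genes most correlated with each, of each list the 2 largest and the smallest differences, and the nearest and overlapping genes. The other genes called in a list, markers and Parp14 were named after their values were seen. Coordinates are those of GENCODE M21 and promoters those of RefSeq, both GRCm38, the build that mm10 names. Some genes counted in the lists are not reported here by name. Alternatives are given in the closing section.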

Additional observations from a re-analysis of the deposited data

Results flagged for a closer look

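Each retina that was the highest or lowest of its group was compared with its nearest neighbour by Dixon's criterion in 23 groups, and 4 were marked. For normally distributed values about 1 in 20 is marked by chance. That rate does not hold here, as all 4 marks fell on Ifitm1 or Ifitm6, whose values were mostly at or near 0. Where all other values are 0, any other value is marked. Ifitm1 was 0.5155 RPKM in naive 7 and 0 in the other naive retinas. Ifitm6 was marked in 3 groups, at 1.069 RPKM in 4 h 4 (next 0.1908), at 13.24 RPKM in 18 h 4 (next 3.44) and at 2.81 RPKM in 2 weeks 7 (next 1.102). The 4 h response of Ifitm7 differed between the experiments by -2.03 in the limma fit (adjusted p = 0.037), with the 3 retinas of experiment 1 at 3.063 to 5.385 RPKM and those of experiment 2 at no more than 1.085 RPKM. That p-value rests on a spread pooled over all groups, including naive retinas at effectively 0, and may be too small.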

How the results depend on the processing

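Of 549 values recomputed under other settings, 489 kept their direction and side of the threshold, 40 lost a call, 6 gained one and 14 changed sign. Ifitm3 and Bst2 kept their calls at 18 h against naive and 4 h retinas in all settings, where experiment 2 alone has a lone 18 h retina that is assumed to vary like the other groups. Only at 4 h were calls of Ifitm3 lost, without a filter (1.33, adjusted p = 0.064), after rescaling to equal summed RPKM (1.05, 0.0554), with only the 2 groups fitted (1.33, 0.075), in experiment 2 alone (0.20, 0.8) and without the 4 retinas with few genes (1.10, 0.0506, chosen after seeing the data). The causes were not tested. The 4 genes called at 4 h became 2 at a pseudocount of 10, at a filter of 5 RPKM (3 genes untested), after rescaling, with 2 groups and in experiment 1 alone, 1 without a filter and 0 in experiment 2. The 5 at 18 h became 3 at a pseudocount of 10 and at the filter of 5 RPKM, and 2 in experiment 2. The 4 lower at 2 weeks than at 18 h became 2 at that filter and in either experiment. Ifitm7, the 1 gene lower at 2 weeks than at 4 h, lost its call at a pseudocount of 10 and in experiment 2, and was untested at that filter. Genes called in either direction between 4 h and 2 weeks became 2 after rescaling and without the 4 retinas. After rescaling the second was Bst2, called higher at 2 weeks (1.07, limma adjusted p = 0.0041). The difference between experiments called for Ifitm7 was 0 genes at a pseudocount of 0.1, at that filter and with the replicate block, and its level at 4 h was 0 genes at that filter and with the block. The 1 pair passed in rank was 0 at a pseudocount of 10 and with values under 1e-08 RPKM set to 0 (chosen after seeing the data). With 1 retina left out, Ifitm3 at 4 h ranged from 1.07 to 1.59 (weaker without 4 h 2, 4 h 3 or 4 h 5), genes called from 1 to 4 at 4 h, 4 to 6 at 18 h, 2 to 5 from 18 h to 2 weeks, 1 to 2 from 4 h to 2 weeks and 0 to 1 between experiments. Signs changed for values short of the test. These were Ifitm7 between 4 h and 18 h (0.27 at a pseudocount of 0.1, 0.26 in experiment 2, 0.06 without the 4 retinas, -0.42 to 0.12 with 1 retina left out), Ifitm6 at 2 weeks (-0.00 at a pseudocount of 10 and without the 4 retinas, -0.15 in experiment 1, -0.19 to 0.20 with 1 left out), Ifitm2 and Ifitm3 at 2 weeks in experiment 2 (-0.34 and -0.48), Ifitm6 in the 4 h response between experiments (0.08 without the 4 retinas, -0.42 to 0.22 with 1 left out) and the ratio of Ifitm3 to Ifitm2 between 2 weeks and 4 h (-0.02 at a pseudocount of 10, -0.12 to 0.23 with 1 left out). The ratio at 18 h against naive passed at a pseudocount of 10 (1.65) and without the 4 retinas (1.49). Same-numbered retinas of different groups had correlations from -0.33 to 0.70 over 34 pairs, 15 above 0.1. Differently numbered retinas were not compared, so these values cannot tell whether numbers pair retinas. With the replicate block, Ifitm6 at 4 h was 0.01, its difference between experiments 1.56, Bst2 between experiments at 4 h 0.07, and naive Ifitm3 and Ifitm6 between experiments -0.04 and -1.11, and 4 and 5 genes stayed called at 4 h and 18 h. All genes called at 4 h were 1063, against 416 at a pseudocount of 10 and 459 in experiment 1, and at 18 h 618, against 338, 232 and 165 (experiment 2). At 18 h against 4 h there were 714, against 458 at a pseudocount of 10, 202 in experiment 1 and 1241 without the 4 retinas, at 2 weeks against 18 h 349, against 76, 177 and 532 (experiments 1 and 2, and without the 4), and at 2 weeks against 4 h 802, against 368 (pseudocount 10), 312, 1433 and 1327. The 1 retina of experiment 2 at 18 h limits comparisons there.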

Other observations

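After the mean of each group was taken off, the genes most like the 6 over the 28 retinas changed. This is a description over values that share libraries, with no test. For Bst2 they were Phf11b (r = 0.773), Ifit3 (0.746) and Ch25h (0.734), all 3 of the antiviral effector list. For Ifitm2 they were Cd74 (0.910), the invariant chain of antigen presentation, Psmc4 (0.867), a proteasome subunit, and Med8 (0.866). For Ifitm3 they were Cp (0.774), Rbm27 (0.771) and Mndal (0.738), for Ifitm7 Tnip3 (0.875), Ambp (0.854) and Mcoln2 (0.853), for Ifitm1 Acp5 (0.826), Lck (0.796) and Lcn2 (0.772), and for Ifitm6 Gm9967 (0.782), Ehbp1 (0.71) and Gm43178 (0.702).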
